A study of Mus musculus with 6 samples.

Results

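The plasminogen activators and their inhibitors were followed in mouse skin fibroblasts (MSFs) as 6 genes picked by name, Plau, Plat, Plaur, Serpine2, Serpinb2 and Serpinf1, out of 22162 genes in the deposited table. The question was how the genes of this protease system differ between senescent and non-senescent MSFs. MSFs were grown from the dorsal skin of a female FASST mouse on the FVB/N strain. These mice carry a tamoxifen (TAM)-inducible Cre driven by the pro-alpha 2(I) collagen promoter and a ROSA26 allele that, once its stop cassette is removed, expresses the cell cycle inhibitor p27Kip1 together with GFP. By the methods both alleles were present in the cells of all 6 samples. In 3 of them MSFs received 10 µM TAM for 48 h (labelled senescent), and in the other 3 they received ethanol, the vehicle (labelled non-senescent, written EtOH). All were kept in 3% oxygen, and the time from treatment to RNA collection and the age of the mouse are not given in the sources used here. Each treatment was done 3 times by the design text, but the methods describe the MSFs as a line from 1 mouse and no source says whether the repeats were separate cultures. The p-values therefore measure the spread between these samples, which may be technical. Poly(A) RNA was sequenced from each sample.

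Plasminogen, made mainly by the liver, is cut to plasmin by 2 serine proteases, urokinase (uPA, encoded by Plau) and tissue-type activator (tPA, encoded by Plat). Urokinase acts at the cell surface when bound to its receptor uPAR, encoded by Plaur. Plasmin digests fibrin and matrix proteins and activates latent growth factors and matrix metalloproteinases. Serpins are suicide substrates that trap such proteases. PAI-2 (Serpinb2) acts on the activators, and protease nexin-1 (Serpine2) acts on thrombin, urokinase and plasmin. Serpinf1 encodes pigment epithelium-derived factor (PEDF), a secreted serpin that does not inhibit proteases, so the group label holds for its family and not for its activity. Several of these genes are known members of the senescence secretome of fibroblasts.

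Promoter sequences of 4 of the 6 genes (Plaur, Serpine2, Serpinb2 and Serpinf1) were found in the RefSeq table of GRCm38.p6, from 250 bases before to 50 bases after the transcription start. The 3 printed here belong to Plaur and Serpinb2, which were highest in the same libraries, and to Serpine2, which differed most between the groups. Capitals mark matches, on either strand, to the AP-1 motif TGANTCA, the cyclic AMP response element TGACGTCA or the TATA box TATAAA. The Plaur promoter is at chr7:24462233-24462532 on the plus strand, that of Serpinb2 (the first of its 2 listed starts) at chr1:107511173-107511472 on the plus strand, and that of Serpine2 at chr1:79858616-79858915 on the minus strand.
Plaur: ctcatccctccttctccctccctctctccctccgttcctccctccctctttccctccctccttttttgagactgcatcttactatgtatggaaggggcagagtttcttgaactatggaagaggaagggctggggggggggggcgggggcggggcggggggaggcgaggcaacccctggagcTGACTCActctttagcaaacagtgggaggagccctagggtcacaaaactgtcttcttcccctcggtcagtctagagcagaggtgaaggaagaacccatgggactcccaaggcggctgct
Serpinb2: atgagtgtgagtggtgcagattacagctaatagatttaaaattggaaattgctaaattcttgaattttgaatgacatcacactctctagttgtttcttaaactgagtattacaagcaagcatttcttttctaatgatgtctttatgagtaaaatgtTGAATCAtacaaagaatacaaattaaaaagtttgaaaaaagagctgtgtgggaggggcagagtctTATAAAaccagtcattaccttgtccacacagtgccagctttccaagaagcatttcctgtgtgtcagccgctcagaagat
Serpine2: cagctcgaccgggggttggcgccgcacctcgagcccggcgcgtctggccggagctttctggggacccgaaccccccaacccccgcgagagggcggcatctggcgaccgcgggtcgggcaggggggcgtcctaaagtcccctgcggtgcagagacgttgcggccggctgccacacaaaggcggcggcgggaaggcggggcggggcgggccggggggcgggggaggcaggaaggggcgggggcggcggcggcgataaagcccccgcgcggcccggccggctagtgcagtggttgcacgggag
The AP-1 letters were found once in the Plaur promoter, 69 bases before the start, and once in that of Serpinb2, 94 bases before it. Of all 32851 listed promoters, 7.81% hold them. The TATA letters lay 29 bases before the Serpinb2 start and are present in 13.6% of all promoters. The GC box GGGCGG, present in 35.7% of all promoters on either strand, was found in 6 places of the Serpine2 promoter and 3 of the Plaur promoter, some of them overlapping. The cyclic AMP letters, in 1.79% of all promoters, were in none of the 4, and the AP-1 letters were not in these windows of Serpine2 and Serpinf1. A match describes letters and is not evidence of binding.

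The normalized counts summed to between 14952367 and 17314953 per library, and the number of reads behind them is not known for all libraries. Cdkn1b, the gene of p27Kip1, had 2118 ± 855 (SD, n = 3) normalized counts in the EtOH and 1616 ± 90.4 (SD, n = 3) in the TAM libraries. It thus did not separate the labels, and whether transgene reads were counted on it is not stated. The 10 fibroblast markers, such as collagen and decorin genes, were abundant in every library, with sums of 1531767 to 1680762 in EtOH and 684994 to 1127539 in TAM, lowest in replicate 2 of TAM. The macrophage marker Emr1 and the keratinocyte marker Krt1 were listed at 0 in all 6 libraries, and Ptprc and Krt14 reached at most 5.01 and 0.91 normalized counts. Other markers of these lists were present. Lyz2 had 46.8, 35.2 and 62.9 normalized counts in EtOH and 103, 143 and 159 in TAM. Csf1r had 75.7, 73.4 and 74.3 in EtOH and 113, 226 and 90.6 in TAM. Trp63 was lower in TAM. Cd68 (up to 352), Cd14 (up to 96.1), Aif1 (up to 25.8), Krt10 (up to 59.1) and Dsp (up to 69.5) overlapped between the groups. The 6 melanocyte markers summed to 134, 255 and 175 normalized counts in EtOH and 163, 141 and 190 in TAM. Pmel was the largest of them in every library, while Dct, Tyrp1 and Sox10 stayed at or below 0.82.

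Across the 6 genes, 3 patterns were seen. Serpine2 was 12.4 to 15.6 times higher with TAM in each pair of libraries with the same replicate number. Plat was modestly higher and Serpinf1 modestly lower in every pair. Plau, Plaur and Serpinb2 differed more between replicates than between treatments, being highest in the libraries numbered 2 of both groups. A difference in bulk RNA cannot be told apart from a change in the number of expressing cells. A gene was tested when it reached 1 c.p.m. (16.2 normalized counts) in at least 3 of the 6 libraries, which 11877 genes and 5 of the 6 members did. Log2 fold changes are differences, TAM minus EtOH, in mean log2(normalized counts + 1), which understates changes of low genes. In the limma model of all tested genes, 0 of the 5 members had a Benjamini-Hochberg adjusted p under 0.05, where 0.244% of all genes did (0.168% higher and 0.0758% lower). Before adjustment, at p under 0.05, Serpine2 was higher and Serpinf1 lower, where 6.67% of all genes were higher and 6.70% lower (13.4% together). With the replicate number as a block, 1 member (Serpine2) was called higher and 0 were called lower, where 1.00% and 0.615% of all genes were called (1.62% together). Serpine2 entered the test through its TAM values, and with the block and no filter it was not called (limma adjusted p = 0.174). At an unadjusted p under 0.05 the block gave 2 members higher (Plat and Serpine2) and 1 lower (Serpinf1), beside 8.64% and 8.32% of all genes (17.0% together). Without both libraries numbered 2, a fit added after seeing the data, 0 members were called, and with the block as well Serpine2 and Plat were.

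**Figure D1:**
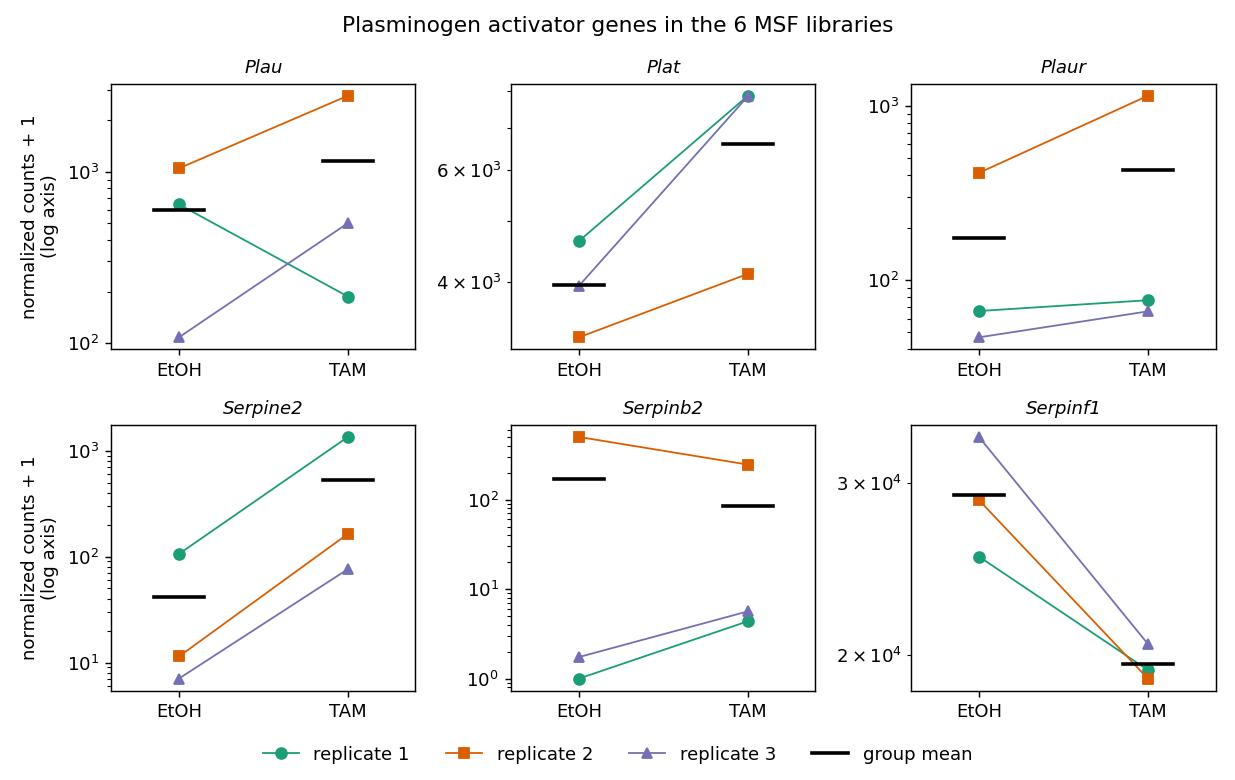
Normalized counts plus 1, on a log axis that differs between panels, of the 6 genes in the EtOH and TAM libraries. Lines join libraries with the same replicate number and black bars are group means (n = 3). The lines of Serpine2 run parallel, from 105, 10.4 and 6.05 to 1348, 163 and 75.2 normalized counts, and replicate 2 is the highest in both groups for Plau, Plaur and Serpinb2.

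Plau (ENSMUSG00000021822; chromosome 14 of mm9, 21655884 to 21662610, 11 exon blocks on the plus strand) encodes urokinase. EtOH replicates 1, 2 and 3 had 645, 1048 and 107 normalized counts, and those of TAM had 186, 2786 and 501. The groups overlapped, and the highest value of each group was in replicate 2. Between same-numbered libraries Plau was 2.66 and 4.68 times higher with TAM in replicates 2 and 3 and stood at 0.288 of its EtOH value in replicate 1. The log2 fold change was 0.61 (standard error 1.14, 95% interval −2.07 to 3.3, limma adjusted p = 0.862), and the block left a standard error of 0.77 (adjusted p = 0.733). Its direction rested on single libraries, since the log2 fold change was −0.36 without replicate 3 of EtOH and −0.45 without replicate 2 of TAM. With the block and without both libraries numbered 1 it was 1.81 (limma adjusted p = 0.0553), and without both numbered 3 it was −0.19.

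Plat (ENSMUSG00000031538; chromosome 8, 23868216 to 23893319, 14 exon blocks on the plus strand) encodes tPA. It had 4641, 3275 and 3946 normalized counts in the EtOH libraries and 7855, 4121 and 7842 in the TAM libraries, in the order of their numbers. Replicate 2 was the lowest of each group, and the TAM value of replicate 2 lay within the EtOH range. Within pairs it was 1.69, 1.26 and 1.99 times higher with TAM. The group means were 3954 ± 683 (SD, n = 3) and 6606 ± 2152 (SD, n = 3), a log2 fold change of 0.69 with a 95% interval of −0.01 to 1.4 (standard error 0.30, limma adjusted p = 0.379). With the block the interval was 0.18 to 1.2 (adjusted p = 0.192). Plat passed the threshold when libraries were weighted by their fit to the model (log2 fold change 0.86, limma adjusted p = 0.038), and with the block when both libraries numbered 2 were left out (log2 fold change 0.87, limma adjusted p = 0.0408). Over 20 alternative fits its limma adjusted p ranged from 0.038 to 0.83. Endothelial cells are a known source of tPA, and the 8 endothelial markers, of which Cldn5 was listed at 0 in every library, summed to 92.5 to 241 normalized counts in EtOH and 24.6 to 45.2 in TAM. Kdr made up most of the EtOH sums (205, 68.7 and 116, against 4.84, 7.53 and 14.0 in TAM). The other 7 summed to 36.5, 23.8 and 20.2 in EtOH and 19.8, 22.6 and 31.2 in TAM, which overlapped, and Vwf was higher in TAM (8.9, 8.36 and 10.1) than in EtOH (0.55, 6.65 and 4.34). The part of these markers in the values of Plat was not tested.

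Plaur (ENSMUSG00000046223; chromosome 7, 25247519 to 25260892, 7 exon blocks on the plus strand) encodes the urokinase receptor. Its normalized counts were 65.4, 411 and 45.9 in EtOH and 75.6, 1141 and 65.1 in TAM. Replicate 2 was 7.39 times the mean of replicates 1 and 3 in EtOH and 16.2 times in TAM, and the other 4 values lay close together. Within pairs Plaur was 1.16, 2.78 and 1.42 times higher with TAM. The log2 fold change was 0.72 with a 95% interval of −2.22 to 3.67 (standard error 1.25, limma adjusted p = 0.848). The block cut the standard error to 0.31 and the interval to −0.06 to 1.5 (adjusted p = 0.321). Without replicate 2 of TAM the log2 fold change was −0.61. Macrophages also express Plaur and Serpinb2, and the 9 macrophage markers, with Emr1 at 0, summed to 214, 553 and 288 normalized counts in EtOH and 395, 569 and 455 in TAM, highest in replicate 2 of each group. The largest part of the sum in replicate 2 was Cd68 in EtOH (352) and Csf1r in TAM (226). No single marker of the list was highest in replicate 2 of both groups. The part of these markers in the values of Plaur and Serpinb2 was not tested.

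Serpine2 (ENSMUSG00000026249; chromosome 1, 79790772 to 79855271, 9 exon blocks on the minus strand) encodes protease nexin-1. In EtOH it had 105, 10.4 and 6.05 normalized counts, and in TAM 1348, 163 and 75.2. The groups overlapped, because replicate 1 of EtOH lay above replicate 3 of TAM, and within each group the values spanned over 17-fold. The pairs were nevertheless alike, at 12.8, 15.6 and 12.4 times higher with TAM in replicates 1, 2 and 3. The log2 fold change was 3.65, with a standard error of 1.31 (95% interval 0.56 to 6.74, limma adjusted p = 0.297) without the block and 0.25 (95% interval 3.02 to 4.27, limma adjusted p = 0.0147) with it. With the block it also passed the threshold without the pair numbered 2 (limma adjusted p = 0.00412) or 3 (limma adjusted p = 0.00975). Without the pair numbered 1, and with a minimum of 10 normalized counts in every library, Serpine2 was too low to be tested. All 3 TAM values but only 1 EtOH value reached 16.2 normalized counts, so the gene entered the test through the group where it was high. In a block model of all 22162 genes its adjusted p was 0.174.

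Serpinb2 (ENSMUSG00000062345; chromosome 1, 109408000 to 109422175 in the table, 12 annotated exon blocks on the plus strand) encodes PAI-2, found largely inside the cell. It was listed at 0, 500 and 0.74 normalized counts in EtOH and at 3.37, 245 and 4.64 in TAM. Only the libraries numbered 2 exceeded a few normalized counts, so it did not pass the filter and was not tested. In replicate 2 the TAM value was 0.491 of the EtOH value. The sign of a group difference depended on the scale, as the log2 ratio of the means was −0.98 and the difference in mean log2 values was 0.93. A pseudogene, Serpinb10-ps, overlaps 12.39% of its exon bases on the same strand. The 8 keratinocyte markers, with Krt1 at 0, summed to 82.5, 81.1 and 92.2 normalized counts in EtOH and 65.7, 126 and 110 in TAM. They did not move together. Trp63 had 25.1, 25.8 and 24.9 in EtOH and 7.15, 2.5 and 6.87 in TAM. Krt5 (0.64, 0 and 0 against 2.96, 7.53 and 13.4) and Dsp (2.89, 12.4 and 5.22 against 4.22, 69.5 and 29.8) were higher with TAM in each pair. Krt10 overlapped between the groups, and Krt14, Epcam and Cdh1 stayed at or below 4.18. The part of these markers in the values of Serpinb2 was not tested.

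Serpinf1 (ENSMUSG00000000753; chromosome 11, 75223271 to 75236203, 9 exon blocks on the minus strand) encodes PEDF, known as an inhibitor of blood vessel growth. It had 25209, 28797 and 33415 normalized counts in EtOH and 19299, 18914 and 20523 in TAM. It was the only one of the 5 tested members whose groups did not overlap, all TAM values being lower, where 11.4% of all tested genes were lower without overlap. None of the 5 was higher without overlap, where 9.19% of all tested genes were (20.6% in either direction). The means were 29140 ± 4114 (SD, n = 3) and 19578 ± 840 (SD, n = 3). The log2 fold change was −0.57 with a 95% interval of −1.09 to −0.04 (standard error 0.22, limma adjusted p = 0.34). The block gave −1.12 to −0.01 (limma adjusted p = 0.286). The median log2 fold change of all tested genes was −0.03. Scaling each library to the same sum moved that median to 0.08 and gave −0.45 for Serpinf1. Its level moved in the direction of the fibroblast marker sums given above, which were mostly counts of Col1a1, Col1a2 and Col3a1. Those 3 genes, Dcn, Lum and Fap were lower in TAM, while Pdgfra, Pdgfrb and Vim overlapped between the groups. Thy1 was higher, with 1036, 2165 and 571 normalized counts in EtOH and 2366, 4122 and 2246 in TAM. The part of these markers in the value of Serpinf1 was not tested.

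The spread between replicates, the size of the change and the adjustment over all tested genes each bear on what could be called. The residual SD of log2 values within groups was 2.12 for Serpine2, 2.02 for Plaur and 1.85 for Plau, ranks 35, 43 and 70 from the largest among the 11877 genes tested. It was 0.42 for Plat and 0.15 for Serpinf1. In the block model the SD was 0.14 for Serpine2 and 0.47 for Plaur, much of whose spread was thus shared by same-numbered libraries. It was 1.5 for Plau, whose pairs differed from each other. Of the tested members, Plat, Plaur and Serpine2 were higher with TAM in all 3 pairs, as were 18.3% of all tested genes, and Serpinf1 was lower in all 3, as were 23.6%. With 3 libraries a group, the smallest two-sided p of an exact permutation test that ignores the pairs is 0.1. The floor is higher for one that keeps the pairs.

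**Figure D2:**
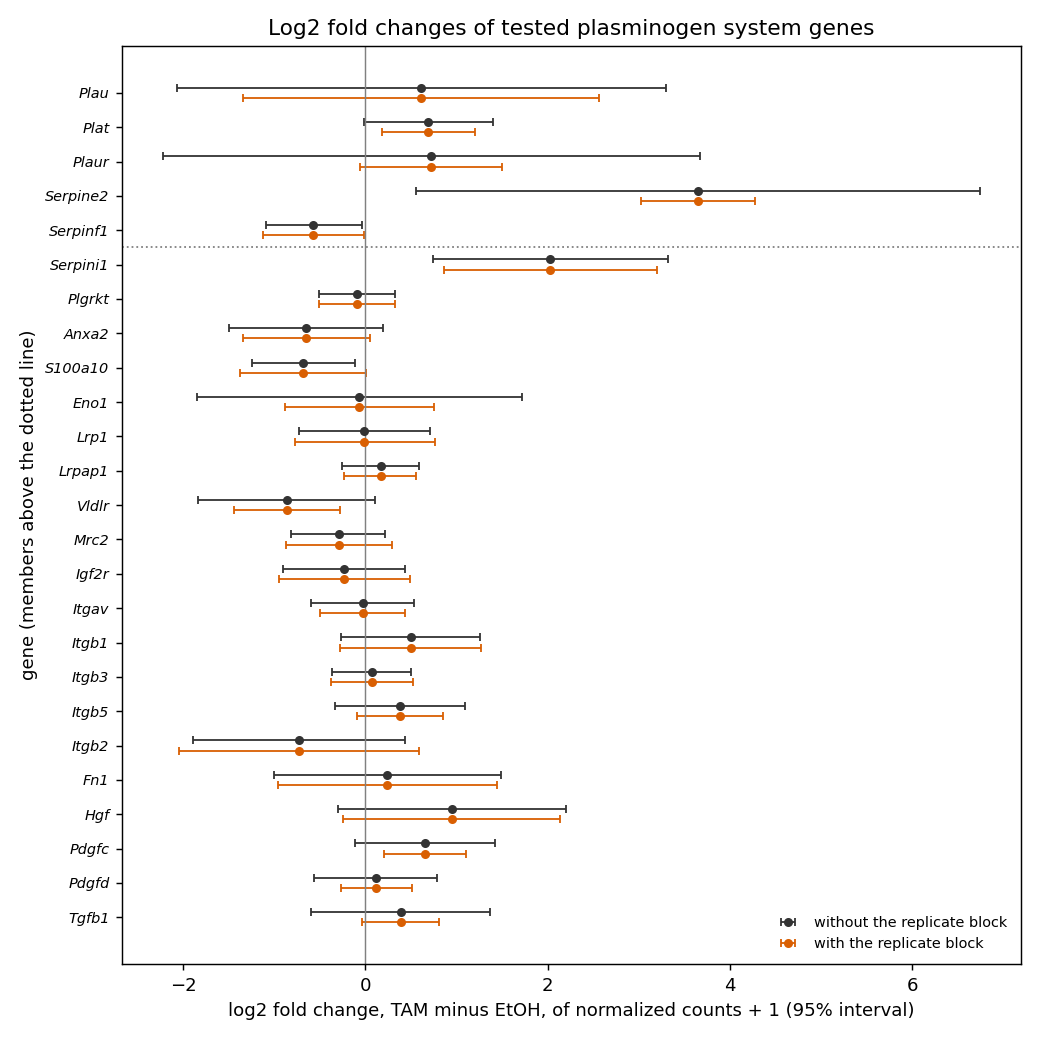
Log2 fold changes (TAM minus EtOH, of normalized counts plus 1) with 95% intervals of the 5 tested members, above the dotted line, and of other tested genes of the plasminogen system, without (black) and with (orange) the replicate block. The interval of Serpine2 narrows from 0.56 to 6.74 without the block to 3.02 to 4.27 with it, while that of Plau stays across 0 in both.

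Per kilobase of merged exons, a scale on which genes can be compared, Serpinf1 was the highest of the 6 members in every library, at 8018 to 14165 normalized counts per kb. Plat came next among the members, at 1294 to 1833 in EtOH and 1628 to 3104 in TAM, so that the per-kb level of Plat exceeded that of Plau in each library. Plau followed with 45.7 to 447 in EtOH and 79.3 to 1189 in TAM, a range that overlapped that of Plaur (32.9 to 295 and 46.6 to 817). Within each library Plau lay above Plaur. Serpine2 (1.58 to 27.5 in EtOH, 19.6 to 352 in TAM) and Serpinb2 (0 to 213 and 1.43 to 105) were the lowest of the members in 5 of the 6 libraries, with Serpinb2 above Serpine2 in those numbered 2. In replicate 1 of TAM, Serpine2 (352) lay above Plau (79.3) and Plaur (54.1). Plau made up 13.0, 25.7 and 2.85% of the summed per-kb level of both activators in EtOH and 2.49, 42.2 and 6.45% in TAM. That share was highest in the libraries numbered 2 of both groups.

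**Figure D3:**
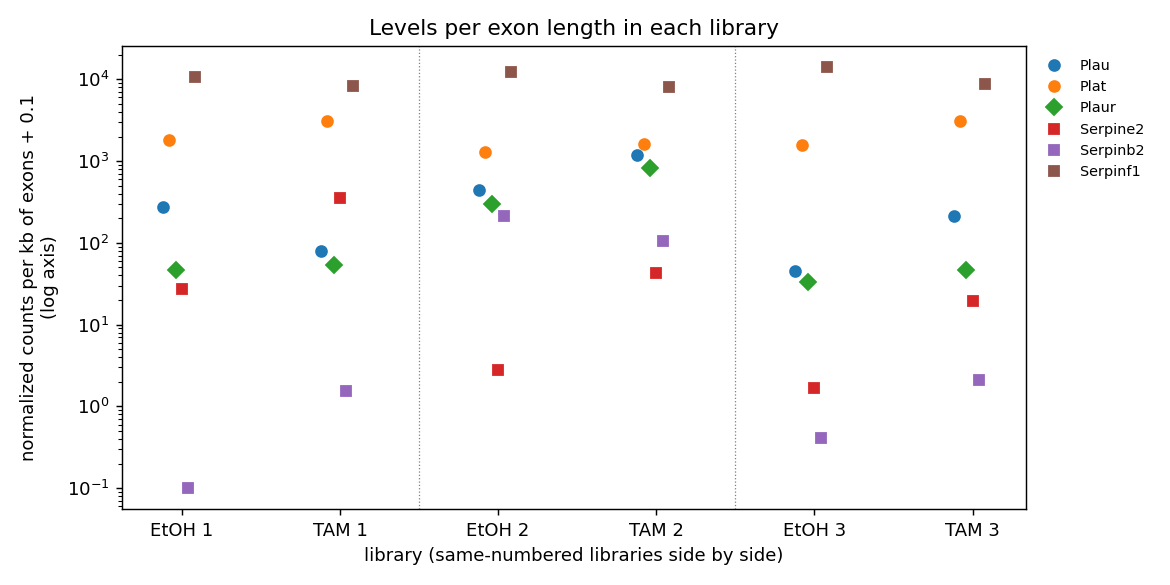
Normalized counts per kb of merged exons plus 0.1, on a log axis, of the 6 genes, with same-numbered libraries side by side. Circles are activators, diamonds the receptor and squares serpins. Serpinf1 is the highest in every library, at 8018 to 14165 per kb, and Plau lies closest to Plat in replicate 2 of TAM, at 1189 against 1628 per kb.

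Of 37 other genes of the system compiled by role, 21 were tested, and 0 were called by limma without or with the block. Of all tested genes 0.244% were called without it and 1.62% with it. Their median log2 fold change was 0.07, beside −0.03 for all tested genes. At an unadjusted p under 0.05, 1 was higher (Serpini1) and 1 lower (S100a10) without the block, beside 6.67% and 6.70% of all tested genes. With the block 3 were higher and 1 lower, beside 8.64% and 8.32%. Plg, the plasminogen gene itself, was listed at 0 in all 6 libraries, and none of the 6 genes of plasminogen and its other activating proteases reached the filter. Among the other inhibitors, Serpini1 encodes neuroserpin, an inhibitor of tPA, and had 2.84, 7.58 and 6.06 normalized counts in EtOH and 21.6, 33.5 and 19.4 in TAM. These low groups did not overlap (log2 fold change 2.03, standard error 0.55, limma adjusted p = 0.206; 1.97 and 0.0425 with library weights), but Serpini1 passed the filter only through its TAM values.

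Of the 16 receptors and binding proteins that gather plasminogen or its activators at the cell surface or clear them, 14 were tested, 4 had a positive log2 fold change, where 46.2% of all tested genes did, and the median was −0.08. S100a10, the partner of annexin A2 in a plasminogen-binding complex, had 2929, 1900 and 2604 normalized counts in EtOH and 1271, 1940 and 1440 in TAM. Its values overlapped through the libraries numbered 2 (log2 fold change −0.68, standard error 0.24, limma adjusted p = 0.295). Without those libraries and with the block it passed the threshold (−1.03, limma adjusted p = 0.0237). It also passed with library weights (−0.9, limma adjusted p = 0.0213). Vldlr, an endocytic receptor of protease-serpin complexes, was lower with TAM in each pair, with 974, 2747 and 1828 against 779, 1386 and 757 normalized counts (log2 fold change −0.86, standard error 0.41, limma adjusted p = 0.432). All 5 tested genes of the 8 substrates had a positive log2 fold change, with a median of 0.39, and none passed the threshold without or with the block. Among them Pdgfc, whose growth factor is activated by tPA, had 278, 365 and 213 normalized counts in EtOH and 441, 639 and 302 in TAM. It was higher with TAM in each pair, by 0.66 on the log2 scale (standard error 0.33, limma adjusted p = 0.446; 0.17 and 0.166 under the block). An antisense gene, Gm16000, overlaps 2.89% of its exon bases. Hgf, a growth factor gene named after its values were seen, had 230, 923 and 220 normalized counts in EtOH and 657, 664 and 776 in TAM and passed the threshold with the block only without the libraries numbered 2 (log2 fold change 1.66, limma adjusted p = 0.00812). With all libraries it was 0.95 (limma adjusted p = 0.389 with the block). When libraries were weighted, Hgf passed without the block (1.57, limma adjusted p = 0.0286).

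Across the serpin family, 60 rows of the table carry a Serpin name, 15 of them at 0 in every library and 21 tested. Without the block limma called 0 of the 21, and with it 1 (Serpine2), beside 0.244% and 1.62% of all tested genes. At an unadjusted p under 0.05, 6 were higher and 1 (Serpinf1) was lower without the block, and 8 and 1 with it, beside 6.67% and 6.70% of all tested genes without and 8.64% and 8.32% with it. The median log2 fold change of the 21 was 0.88. Among the 6, Serpine2, Serpini1, Serpina3f and Serpina3i reached 16.2 normalized counts in every TAM library but in at most 1 EtOH library. They thus entered the test mainly through the group where they were high, so these counts and the median are not independent of the filter. Serpina3f and Serpina3i, named after their values were seen, belong to the Serpina3 cluster described below. With the block and without both libraries numbered 2, Serpina3n, Serpina3g and Serpina3m also passed (log2 fold changes 2.05, 3.02 and 2.13). With all libraries their log2 fold changes were 0.88, 2.49 and 0.93 (limma adjusted p = 0.606, 0.0671 and 0.596 with the block), and in the pair numbered 2 Serpina3n and Serpina3m stood at 0.363 and 0.361 of their EtOH values. They are named after their values were seen and belong to a cluster of near-identical genes whose reads may be split. Of the 3 serpin members, Serpine2 thus lay above and Serpinf1 below the family's median, and Serpinb2 was not tested.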

How the data were processed

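Poly(A) RNA of 6 MSF samples, 3 TAM and 3 EtOH, was sequenced. The authors mapped reads to mm9 with TopHat, counted them with htseq-count and tested them with edgeR after TMM normalization. The signal deposited by the authors is 1 table of normalized counts, which are not whole numbers, so edgeR was not run here. Versions, strand setting and scaling of the table are not given in the sources used here, and without a strand setting overlapping genes cannot be told apart. Reads per library are unknown, so no counting intervals are given.

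Samples were grouped by label. limma 3.58.1 in R 4.3.3 was fitted with an intensity trend to log2(value + 1) over the 11877 genes at or above 16.2 (1 c.p.m. of the mean library sum) in at least 3 libraries, and again with a block for the replicate number. Within groups, the deviations from the mean of libraries sharing a number correlated across genes, which are not independent replicates, with Pearson's r of 0.241, 0.287 and 0.422, so the numbers were taken as pairing the samples. Those of other library pairs correlated with at most 0.0374. The deviations of a group sum to 0 for each gene, so a high r in some pairs forces a low r in others. The low values are thus not separate evidence for the pairing. This pairing comes from the labels' numbers and from the same values that the block model then tests. With 3 libraries a group only a few matchings are possible, so the likeness of same-numbered libraries is weak evidence for it. The calls with the block, such as that of Serpine2, depend on this pairing. Exon blocks and overlaps were taken from the NCBIM37 (mm9) annotation. Eno1 was found by its gene identifier (its counts may be split with a near-identical copy) and Plgrkt by its RefSeq accession. Figures were made with Python 3.11.15 and matplotlib 3.10.9.

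The members, lists and alternatives were chosen with earlier results of these data known. Named beside the members are Plg and, since no other gene of the lists was called, the 4 with the smallest unadjusted p. 1 gene that the naming rule also held is counted in its lists but not reported here. For each tested member the 2 genes with the most alike pattern are named as well. Serpins outside the members were to be named if called. Alternatives were pseudocounts of 0.1 and 10, other filters, scalings and weights, the block, each library left out, and ratios of means.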

Additional observations from a re-analysis of the deposited data

How the results depend on the processing

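For Serpine2 the log2 fold change with the replicate block was 3.65 and past the threshold, as it was with the block without the libraries numbered 2 (3.55) or 3 (3.75). It entered these fits through its TAM values, was not called with the block and no filter (limma adjusted p = 0.174), and was too low to be tested without the libraries numbered 1. Plat passed with library weights (0.86) and with the block without the libraries numbered 2 (0.87). Plau changed sign when single libraries were left out (−0.45 to 1.5) and with the block without the libraries numbered 3 (−0.19), and Plaur changed sign when single libraries were left out (−0.61 to 1.69). Members called higher numbered 0, and 1 with the block, 1 with library weights, 2 and 1 with the block without the libraries numbered 2 and 3, but 0 with the block without those numbered 1 and 0 with the block and no filter. Over all genes, 20 were called higher and 9 lower, against 119 and 73 with the block, 45 and 3 without a filter, 386 and 356 with library weights, 5 and 4 without both libraries numbered 2, and 0 to 6 and 0 to 9 when single libraries were left out, and 4 lower with at least 10 in every library. Other genes of the system called numbered 0, but 1 without a filter (F12, listed at 0 in EtOH and at most 0.82 in TAM) and 4 with library weights (Serpini1 and Hgf higher, S100a10 and Itgb2 lower). Serpin genes called numbered 0, but 1 with the block and 9 with library weights. The cause of these shifts was not tested. Of the genes most like a member, Sfrp1 and Pcsk5 passed only with the block (limma adjusted p = 0.0237 and 0.0345). They were picked for their likeness to Serpine2, so sharing its call follows in part from that choice. The block changed the call of no other member, of none of the genes compiled by role, and of none of the other 8 most alike genes. Plat, Serpine2 and Serpinf1 kept their direction under every alternative that gave a value. The alternatives with the block and a pair left out, or both libraries numbered 2 left out, and the block without a filter were chosen after seeing the data. With 3 libraries a group and unknown read depth, differences of a few normalized counts, such as those of Serpinb2 in replicates 1 and 3, cannot be read.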

Other observations

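The genes most like each tested member were those with the smallest root mean square difference of log2(normalized counts + 1), each gene centred on its own mean, over the 6 libraries. For Plau these were Apold1 (difference 0.444) and Tm4sf1 (0.455). For Plaur they were Id3 (0.36), a helix-loop-helix transcription regulator, and Cd44 (0.365), the hyaluronan receptor. Cd44 had 996, 4195 and 545 normalized counts in replicates 1, 2 and 3 of EtOH and 1194, 12461 and 1403 in those of TAM, so it shared the high values of Plaur in the libraries numbered 2.

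For Serpine2 the most alike were Sfrp1 (0.578), a secreted Wnt antagonist, and Pcsk5 (0.69), a proprotein convertase. Sfrp1 had 31.0, 2.8 and 1.62 normalized counts in EtOH and 532, 47.7 and 71.7 in TAM, again with replicate 1 the highest of each group. Like Serpine2, Sfrp1 passed the filter mainly through its TAM values. Sfrp1 and Pcsk5 were picked for their likeness to Serpine2, and both had a limma adjusted p under 0.05 with the replicate block (0.0237 and 0.0345) but not without it (0.223 and 0.268). For Plat they were Mycbp2 (0.078), a ubiquitin ligase, and Ppip5k1 (0.099), and for Serpinf1 Diap2 (0.04) and Amdhd2 (0.051). With 6 libraries and 11877 genes, close patterns occur among many genes, and no p is given.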
